A study of Mus musculus with 18 samples.

Results

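The notochord and node cells were picked out of 18 single-embryo transcriptome libraries by their own markers. Among cells with 3000 or more mouse UMIs (unique molecular identifiers, each standing for 1 captured transcript), a member was a cell with at least 1 UMI for at least 4 of the 6 genes T, Noto, Chrd, Shh, Foxa2 and Nog. The rule found 619 members among 98063 cells. They came from 7 wild-type (WT) embryos with 260 members, 3 Dnmt1 null embryos (Dnmt1_KO) with 26, 4 Dnmt3a null embryos (Dnmt3a_KO) with 165 and 4 Dnmt3b null libraries (Dnmt3b_KO) with 168. Dnmt1 is the maintenance DNA methyltransferase, and Dnmt3a and Dnmt3b are the de novo DNA methyltransferases. All embryos were on the 129S4/SvJae background and were collected at E8.5, in early organogenesis. From cell type shares the study reported a minor developmental delay of Dnmt1 null embryos, among which it also counted published ones. Stage and genotype can thus not be told apart in the Dnmt1_KO comparison, and no stage was inferred here. The null embryos came from crosses of heterozygous parents and were genotyped by PCR on the ectoplacental cone.

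The node is a transient pit of ciliated cells at the front of the primitive streak, and its beating cilia drive the leftward flow that breaks left-right symmetry. Its cells feed the notochord, a midline rod that patterns the overlying neural tube and the flanking somites through secreted Shh and through the BMP antagonists Chrd (Chordin) and Nog (Noggin). T (Brachyury), Noto and Foxa2 are transcription factors of these cells, and Noto acts upstream of the cilium regulator Foxj1 in the node. The other markers are not restricted to them. T also marks tail bud progenitors, and Foxa2 and Shh also mark floor plate and gut.

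Libraries stood apart in several ways. Dnmt3b_KO replicates 1 and 2 shared 12249 barcodes, 86.5% and 79.3% of their barcodes, against at most 133 in any other pair, and were joined into 1 library with each shared barcode taken once. After joining, Dnmt3b_KO counted 3 libraries. By Y-linked counts all Dnmt1_KO and Dnmt3a_KO embryos were male, Dnmt3b_KO was male except replicate 12, and WT was female except replicate 2, so that sex and genotype are nearly inseparable for Dnmt1_KO and Dnmt3a_KO. The matrix headers gave Cell Ranger 3.1.0 for 17 libraries and 5.0.0 for Dnmt3b_KO replicate 12. WT replicate 1, Dnmt3a_KO replicates 1 and 13 and Dnmt3b_KO replicate 11 had been aligned to a combined human and mouse reference. The labels do not say which embryos shared a litter, and p-values measure only the spread between these embryos.

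WT replicates 1 to 7 held 46, 23, 55, 58, 13, 50 and 15 members. Dnmt1_KO replicates 1 to 3 held 8, 10 and 8. Dnmt3a_KO replicates 1, 2, 13 and 14 held 42, 29, 47 and 47. Among Dnmt3b_KO libraries, replicates 11 and 12 held 68 and 34 and the joined library held 66, with 50 in replicate 1, 59 in replicate 2 and 41 barcodes called in both. Member cells were deep, with library medians between 20149 and 87539 UMIs, and their summed UMIs ranged from 307822 in Dnmt1_KO replicate 2 to 3339063 in WT replicate 4. In the Dnmt1_KO libraries a single cell carried 20.1% to 31.0% of all member UMIs. A doublet caller marked 86 members (13.9%), and these were kept. The marks were uneven, at 20 of 66 in the joined Dnmt3b_KO library and 13 of 47 in Dnmt3a_KO replicate 13. Each Dnmt1_KO embryo had 0, and WT embryos had 0 to 8. The caller's rate was set to rise with the number of cells in a library. The share marked among the other cells is not given, so the 13.9% has no background.

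The 6 genes of the rule did not contribute alike. Shh was detected in 96.4% of members, T in 95.3%, Foxa2 in 92.7%, Nog in 85.5%, Chrd in 57.0% and Noto in 48.9%. In all other cells T was detected in 11.04%, Foxa2 in 12.9%, Nog in 7.80%, Shh in 3.35%, Chrd in 1.31% and Noto in 0.0657%, so Noto was the rarest outside the members. All 6 genes were detected in 130 members, 5 in 210 and 4 in 279. Just outside the threshold lay 948 cells with 3 of the 6, of which 2.85% had a Noto UMI, against 12.9% of the members with exactly 4. These values chose the cells and are given without a test.

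Levels are given as CPM, the UMIs of a gene for every 1000000 UMIs summed over the member cells of a library. Shh stood at 154 to 862 CPM in WT members with a median of 429, at 300, 305 and 147 in Dnmt1_KO replicates 1 to 3, at 262 to 758 in Dnmt3a_KO and at 347 to 546 in Dnmt3b_KO. T ranged from 367 to 655 CPM in WT with a median of 553, and stood at 205, 1017 and 140 in Dnmt1_KO. Noto ranged from 34.4 to 117 CPM in WT with a median of 57.8, and stood at 11.3, 266 and 14.9 in Dnmt1_KO. Dnmt1_KO replicate 2 thus lay above every WT embryo for T and Noto, and replicates 1 and 3 lay below every WT embryo. The BMP antagonist Nog was at 67.3 to 213 CPM in WT and at 91.7, 130 and 58.2 in Dnmt1_KO. In Dnmt3a_KO and Dnmt3b_KO the Noto values of 61.8 to 92.3 and 54.4 to 81.1 CPM lay inside the WT range.

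Genes outside the rule described the cells further. Of the 15 genes with the largest ratio of members to other cells in WT, 14 are given here, led by Samd3, with a median log2 ratio of 9.17 over the 7 embryos and a UMI in 63.5% of WT members, and with lower ratios in 9530036O11Rik (6.88), Srarp (6.81), Avpr1b (6.71) and Isg20 (5.69). Pifo and Fam183b, genes of motile cilia, followed at 5.52 and 5.30, ahead of Nav3 (5.22), Vtn, which encodes the matrix protein vitronectin (5.20), Cobl, an actin nucleator (5.12), Moxd1 (5.11), Gm26894 (5.01) and Guca1a (4.90). Cthrc1, a secreted collagen-repeat protein, had the smallest ratio of the 15 (4.77) and the highest level, at 377 ± 109 CPM (SD, n = 7) in WT members against 14.9 in other cells. It was detected in 94.6% of WT members. The same genes stood above the other cells in the 3 null groups, where the medians for Cthrc1 lay between 4.54 and 4.60. Since the cells had been chosen on their own transcripts, these ratios are a description.

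**Figure D1:**
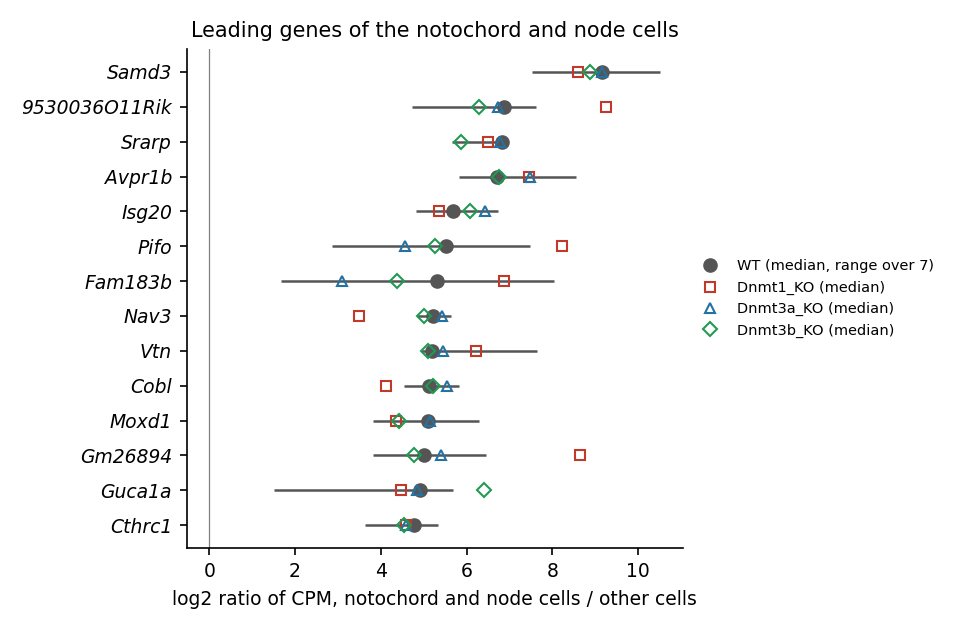
Log2 ratio of CPM in notochord and node cells to CPM in all other cells of the same library, for 14 of the 15 leading genes in WT. Filled circles are WT medians with lines from the lowest to the highest of 7 embryos, and open symbols are the medians of the null groups. Samd3 leads at a WT median of 9.17, and Pifo and Fam183b have wide WT ranges and Dnmt1_KO medians to the right of the WT medians.

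Markers of other tissues were present in part of the members. At least 4 of 6 gut endoderm markers were detected in 16.0% of members and 4.32% of other cells, at least 4 of 6 neuromesodermal and tail bud markers in 18.1% and 7.76%, and at least 4 of 6 somitic markers in 8.89% and 2.45%. Erythroid markers reached that bar in 33.3% of members and 38.2% of other cells, yolk sac endoderm markers in 24.7% and 30.6%, neural tube markers in 9.85% and 9.79%, trophoblast markers in 0.646% and 1.61% and endothelial markers in 0.808% and 2.83%. The groups differed, with erythroid markers at that bar in 0 of 26 Dnmt1_KO members, 28.8% of WT, 43.6% of Dnmt3a_KO and 35.1% of Dnmt3b_KO, and gut markers in 26.9%, 20.4%, 7.27% and 16.1% in the same order. These shares count single UMIs in deep cells, in members that were themselves chosen by detection of several genes. They have no background from a cell type without the transcripts. Members marked as doublets are included, and their part in these shares was not tested. By level the WT medians in members and other cells were 710 and 743 CPM for the gut list, 372 and 269 for the neuromesodermal and tail bud list, 195 and 5831 for the yolk sac list and 80.7 and 6322 for the erythroid list.

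Members with and without Noto differed in other transcripts. Of the 619 members 303 had a Noto UMI, and in WT these Noto-positive members were compared with the Noto-negative ones of the same embryo. The share of Noto-positive members ran from 34.8% to 61.5% across WT embryos. In Dnmt1_KO it was 2 of 8 in replicate 1, 10 of 10 in replicate 2 and 5 of 8 in replicate 3. Among the genes with the largest excess in Noto-positive WT members were the cilium gene Fam183b (median log2 ratio 4.22), Srarp (4.15), the cilium gene Pifo (4.13), the homeobox gene Mixl1 (3.61), Efcab10 (3.53), the cilium gene Cfap126 (3.21), Lrrc18 (3.15), the ephrin receptor Epha2 (3.11) and Klhl6 (3.01). On the Noto-negative side stood Epha5 (-3.07), the endoderm transcription factor Sox17 (-2.96), Apela, a secreted ligand of the apelin receptor (-2.68), the tight junction gene Ocln (-2.47) and the epithelial adhesion gene Epcam (-2.43). These 14 genes were picked from the 20 leading ones and kept their direction in 6 or 7 of 7 WT embryos, whereas Tnnc1, a troponin gene among the 20 (-2.45), kept it in 4 of 7. Leaving out Mixl1, which was at 0 on both sides in a Dnmt1_KO embryo, they kept it in 7 to 9 of the 9 null libraries that had both kinds of member. Noto is a gene of the rule, so no test is attached to the split.

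The same split was read on gene lists. Summed over the list of cilium genes, Noto-positive WT members lay between 174 and 1565 CPM with a median of 463, and Noto-negative members between 167 and 258 with a median of 189. The cilium sum was higher in the Noto-positive members of 6 of 7 WT embryos, with WT replicate 5 the exception at 174 against 252. The list of left-right signalling genes was higher on the Noto-positive side in 7 of 7 WT embryos. The gut endoderm list was lower on that side in 6 of 7, with a median of 325 against 938 CPM. In Dnmt1_KO replicates 1 and 3 the gut list stood at 4064 and 5177 CPM in the 6 and 3 Noto-negative members, above every WT embryo, and at 209 and 102 in the Noto-positive ones. The members of Dnmt1_KO without Noto thus had a higher gut sum than the members, with or without Noto, of any other library.

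**Figure D2:**
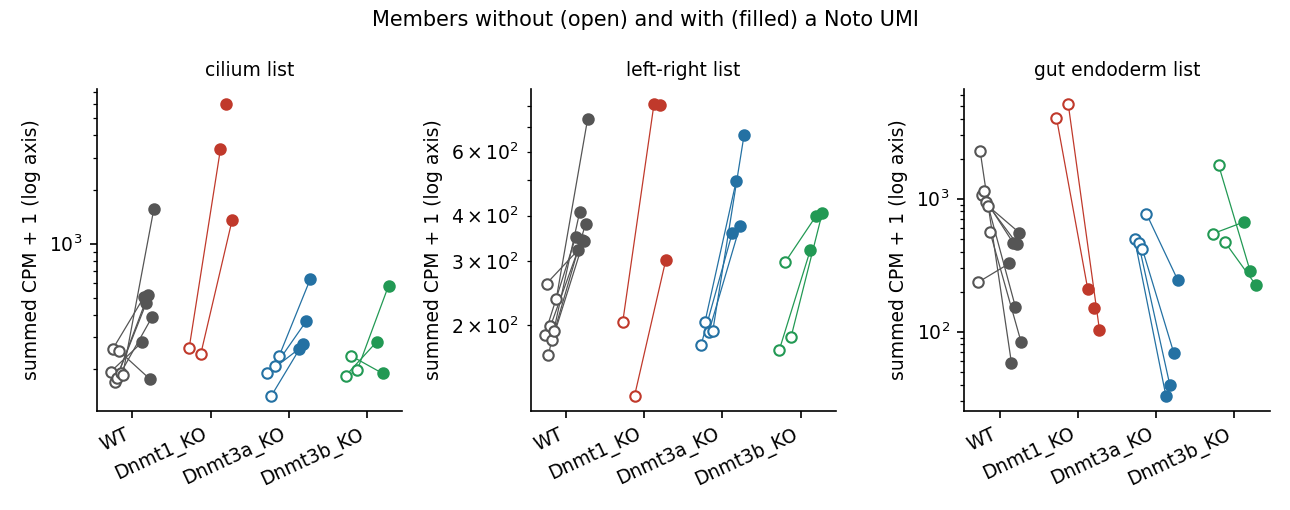
Summed CPM plus 1 (log axis) of the cilium, left-right and gut endoderm lists in members without a Noto UMI (open circles) and with a Noto UMI (filled circles), joined by library. In WT the cilium sum rises from 189 to 463 CPM in the median and the gut sum falls from 938 to 325, and Dnmt1_KO replicate 2 has filled circles alone because all of its 10 members had a Noto UMI.

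The share of notochord and node cells among all cells was asked about next. In WT it ran from 0.358% to 1.53% with a mean of 0.844% ± 0.405 (SD, n = 7). Dnmt1_KO replicates 1 to 3 had 0.528%, 0.321% and 0.327% (mean 0.392% ± 0.118, SD, n = 3), with exact Clopper-Pearson 95% intervals of 0.228% to 1.04%, 0.154% to 0.589% and 0.141% to 0.644% that cover counting error only. Dnmt3a_KO had 0.544% ± 0.184 (SD, n = 4) and Dnmt3b_KO 0.641% ± 0.063 (SD, n = 3). Detection of 4 markers depends on depth, so every cell was also thinned to 3000 UMIs, after which the means were 0.140% in WT, 0.036% in Dnmt1_KO, 0.115% in Dnmt3a_KO and 0.130% in Dnmt3b_KO. Few members were left by thinning, on average 0.51, 2.15 and 0.15 in Dnmt1_KO replicates 1 to 3 and 2.4 to 10.07 in WT embryos, so that the 0.5 added to each count weighs on the Dnmt1_KO values. On the thinned log2 shares Dnmt1_KO differed from WT by -1.43 (exact two-sided permutation p = 0.0333, adjusted over 3 comparisons 0.1, 3 against 7 embryos, smallest possible p 0.0167). Of its 3 embryos 2 lay below every WT embryo. The difference did not pass after adjustment, and without thinning it was -0.94 (exact permutation p = 0.1). With thinning to 10000 UMIs it was -1.32 (exact permutation p = 0.0167, the smallest possible, adjusted 0.05), and with 3 of 6 markers and no thinning -1.55 (exact permutation p = 0.0167), with all 3 embryos below every WT embryo in both. With 5 of 6 markers and no thinning it was -0.85 (exact permutation p = 0.183), with 1 embryo below every WT embryo. With thinning to 3000 UMIs Dnmt3a_KO differed by -0.27 (exact permutation p = 0.424) and Dnmt3b_KO by -0.12 (exact permutation p = 0.75), both within the WT spread. Without thinning 1 Dnmt3a_KO embryo lay below every WT embryo, and with thinning to 10000 UMIs 2 of 4 did (difference -0.34, exact permutation p = 0.242). A smaller share and a lower detection of the markers per cell cannot be told apart.

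**Figure D3:**
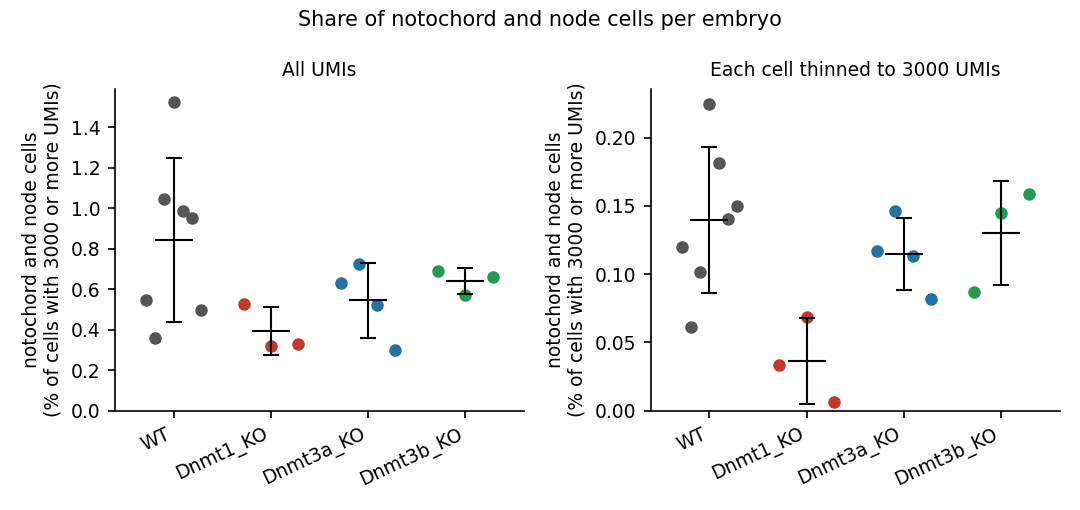
Percent of cells with 3000 or more UMIs that met the marker rule, by embryo, with all UMIs on the left and with each cell thinned to 3000 UMIs on the right. Points are libraries and black bars are the mean ± SD. Of the 3 Dnmt1_KO embryos 2 sit below the WT range on the left and 2 on the right.

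The targeted genes were read in every library first. Dnmt1 stood at 73.9 to 128 CPM in WT members with a median of 101, and at 15.1, 9.75 and 6.19 in Dnmt1_KO replicates 1 to 3. It fell by 3.13 ± 0.27 (SE) on the log2 scale (edgeR adjusted p = 3.34e-07), with no overlap. Dnmt3a stood at 24.7 to 51.4 CPM in WT and at 10.6, 12.2, 9.32 and 13.9 in Dnmt3a_KO replicates 1, 2, 13 and 14, all 4 below every WT embryo, with a log2 difference of -1.54 ± 0.31 that did not pass the threshold (adjusted p = 0.0932). Dnmt3b was at 35.9 to 65.6 CPM in WT and at 51.6, 50.3 and 47.5 in Dnmt3b_KO, a log2 difference of -0.04 (adjusted p = 0.99). The level of Dnmt3b thus did not check that label.

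Expression was compared across all genes on the UMIs summed over the members of each embryo, with edgeR, where a call needed a log2 difference of 1 or more in size and an adjusted p below 0.01. Libraries with 10 or more members were to enter each comparison. A single Dnmt1_KO library reached that, so the Dnmt1_KO comparison used libraries with 5 or more members, which kept all 3. Of 9562 genes tested 306 were called in Dnmt1_KO (3.2%), 247 higher (2.58%) and 59 lower (0.617%). In Dnmt3b_KO 17 of 11183 genes were called (0.152%), every one higher. In Dnmt3a_KO edgeR called 0 of 11183 genes (0%), with 880 at an unadjusted p under 0.05 and 7 called by DESeq2. With sex as a covariate the Dnmt1_KO count was 81 and without Dnmt1_KO replicate 2 it was 153. With the replicate number as a block the count was 31 in Dnmt1_KO and 95 in Dnmt3a_KO (0.85%). A library whose number no other library shared had no weight on the group differences in that fit. The Dnmt3a_KO values there rested on replicates 1 and 2. Those of Dnmt3b_KO rested on the joined library alone, so no Dnmt3b_KO count is given. Few libraries were left to measure spread, so calls lost or gained in that fit are a weak check.

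Germline genes rose in Dnmt1_KO members (2.58% of all genes tested were called higher). These genes of meiosis, sperm and egg are kept silent in somatic cells, many of them by promoter methylation. Of 31 listed 16 were tested and 15 were called higher, with a median log2 difference of 7.26 against 0.00 over all genes tested, and for 16 of 16 every Dnmt1_KO embryo lay above every WT embryo, against 4.21% of all genes tested. Listed genes without a UMI in any WT embryo, such as Dazl and Rhox13, passed the filter on low counts only through null libraries. The median and the 16 of 16 thus describe the genes kept by that filter and are no test of the list. Summed over the list, members held 13.6 to 55.9 CPM in WT, 691 to 926 in Dnmt1_KO, 24.7 to 102 in Dnmt3a_KO and 181 to 1003 in Dnmt3b_KO. The list's level in the other cells of the same embryos was 11.3 to 22.7 CPM in WT and 468 to 486 in Dnmt1_KO. The list counts 15 with the sex covariate and 3 with the replicate block.

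Promoters are shown for 4 germline genes called in Dnmt3b_KO, because CpG sites are the substrate of the deleted enzymes. Each is the 250 bases before the transcription start in RefSeq on GRCm38.p6, read 5′ to 3′ on the gene's strand, with the CpG dinucleotides in capitals. Rpl39l lies at chr16:10169978-10170227 on the plus strand, Tuba3a at chr6:125286082-125286331 on the minus strand, Slc25a31 at chr3:40708621-40708870 on the plus strand and Hormad1 at chr3:95559427-95559676 on the plus strand.
Rpl39l: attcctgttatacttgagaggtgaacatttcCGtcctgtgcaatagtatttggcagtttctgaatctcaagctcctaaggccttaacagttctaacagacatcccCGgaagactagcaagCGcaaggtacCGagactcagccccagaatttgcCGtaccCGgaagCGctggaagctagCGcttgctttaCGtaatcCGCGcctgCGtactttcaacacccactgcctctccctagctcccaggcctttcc
Tuba3a: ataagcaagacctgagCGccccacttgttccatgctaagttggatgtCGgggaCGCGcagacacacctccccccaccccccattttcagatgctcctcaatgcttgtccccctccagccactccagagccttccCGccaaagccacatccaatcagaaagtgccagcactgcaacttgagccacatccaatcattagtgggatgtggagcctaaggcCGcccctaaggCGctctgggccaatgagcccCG
Slc25a31: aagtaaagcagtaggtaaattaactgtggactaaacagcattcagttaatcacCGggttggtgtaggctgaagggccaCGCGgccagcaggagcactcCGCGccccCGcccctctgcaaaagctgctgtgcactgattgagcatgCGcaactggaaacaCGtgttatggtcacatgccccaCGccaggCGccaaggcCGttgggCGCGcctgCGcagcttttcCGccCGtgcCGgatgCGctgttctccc
Hormad1: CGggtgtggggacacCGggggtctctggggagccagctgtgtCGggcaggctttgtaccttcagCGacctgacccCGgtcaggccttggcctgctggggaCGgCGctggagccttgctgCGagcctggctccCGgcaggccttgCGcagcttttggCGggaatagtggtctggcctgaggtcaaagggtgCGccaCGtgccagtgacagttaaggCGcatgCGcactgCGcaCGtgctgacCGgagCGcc
They hold 12, 8, 18 and 19 CpG dinucleotides. The median over all 27025 promoters in the table was 6, that over the 8959 of 11183 genes tested in Dnmt3b_KO with an entry was 17, and that over the 17 genes called in Dnmt3b_KO was 14. The E-box CACGTG, the site of several germline gene repressors, occurred at -93 in Slc25a31 and at -57 and -20 in Hormad1. It was found in 5 of the 17 promoters of genes called in Dnmt3b_KO (29.4%), in 8.71% of the promoters of genes tested there and in 6.05% of all promoters. Among genes called higher in Dnmt1_KO 6.0% of 200 promoters held it, against 8.79% of those tested in that comparison. For the listed germline genes called in Dnmt1_KO it stood in 4 of 14 promoters (28.6%). The E2F core TCCCGC, searched on both strands, stood in 6 of the 17 (35.3%) and in 31.7% of the promoters of genes tested in Dnmt3b_KO. A match of letters is a description and not a bound site, and methylation was not measured in these cells.

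Rpl39l, a ribosomal protein gene of male germ cells, stood at 0 to 2.14 CPM in WT members and at 202, 159 and 163 in Dnmt1_KO. Its log2 difference was 7.14 ± 0.44 (adjusted p = 4.44e-09). Dazl, an RNA-binding protein of germ cells, was at 0 in all 7 WT embryos and at 72.9, 61.7 and 34.7 CPM in Dnmt1_KO, at least 233-fold higher when the WT members are set to 3 counts over the group. Rhox13, a testis homeobox gene, was at 0 in WT and at 81.7, 120 and 69.3 CPM in Dnmt1_KO, at least 351-fold higher. At 0 in every WT embryo and called were also Gm15389 (26.0 to 102 CPM in Dnmt1_KO, at least 260-fold), 1700018B24Rik (45.5 to 57.0, at least 218-fold), Tex13b (29.2 to 40.9, at least 164-fold), Cox7b2 (23.5 to 40.2, at least 131-fold), Asz1 of the piRNA pathway (19.5 to 40.9, at least 129-fold) and AC159200.1 (23.5 to 35.7, at least 124-fold). Tex15, which acts with piRNAs in male germ cells, was measurable in WT at 5.58 to 10.7 CPM and rose to 35.7 to 64.4 (log2 2.83 ± 0.24, adjusted p = 3.34e-07). Ddx4, the germ cell helicase Vasa, was at 0 to 7.99 CPM in WT and at 11.1 to 29.2 in Dnmt1_KO (log2 3.62 ± 0.80, adjusted p = 0.00679).

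In Dnmt3b_KO members germline genes were called as well (0.152% of all genes tested were called higher). Replicate 12, at 1003 CPM summed over the list, lay above every Dnmt1_KO embryo, and the other Dnmt3b_KO libraries, at 280 and 181 CPM, lay below them. Of the 31 germline genes 22 were tested there and 7 were called higher, with a median log2 difference of 4.89 against -0.02 over all genes. For 17 of 22 every Dnmt3b_KO library lay above every WT embryo, against 1.73% of all genes tested. Here too, listed genes without a UMI in any WT embryo, such as Dazl, were tested only because null libraries held them. The median and the 17 of 22 thus describe the genes kept by the filter on low counts. The list counts 12 with the sex covariate. With a single library left out it counts 4 to 10, with 5 without Dnmt3b_KO replicate 11 or without replicate 12. Rpl39l stood at 60.5, 120 and 38.0 CPM in replicates 11 and 12 and the joined library (log2 5.76 ± 0.47, adjusted p = 3.71e-06). Tuba3a, a testis tubulin, was at 16.1, 50.3 and 8.95 CPM against at most 0.303 in WT (log2 7.31 ± 0.67, adjusted p = 1.18e-05). Cyct, the testis cytochrome c, was at 50.1, 53.4 and 17.9 against 0 to 4.28 (log2 7.01 ± 0.79, adjusted p = 9.65e-05). Slc25a31, the germ cell ADP/ATP carrier, was at 59.4, 96.5 and 38.0 against 0 to 10.98 (log2 5.28 ± 0.58, adjusted p = 9.34e-05). In these 4 genes every Dnmt3b_KO library lay above every WT embryo, and replicate 12 was the highest.

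Genes of meiosis and the piRNA pathway followed. Syce1, of the synaptonemal complex, stood at 5.37, 28.8 and 9.51 CPM (WT 0 to 0.998, log2 6.45), and Hormad1, of the chromosome axis, at 10.7, 16.4 and 5.59 (WT 0 to 0.599, log2 5.58). Rec114, needed for meiotic DNA breaks, had a log2 difference of 4.10, and Hsf2bp, a meiotic recombination gene, one of 3.79. Mov10l1 and Fkbp6 of the piRNA pathway had log2 differences of 4.79 and 4.98, and Tex19.1, a regulator of transposons, one of 4.99. AU022751 (6.64), 8030474K03Rik (5.61), Gm4779 (4.23), Xlr (3.77), Slc9b1, a sodium/proton exchanger of sperm (3.09), and Mtus2, a microtubule-binding protein (2.20), completed the 17. Without Dnmt3b_KO replicate 12 there were 10 calls, all 10 among the 17, without replicate 11 there were 11 with 10 among the 17, and after thinning to the smallest library there were 4 with 3 among the 17. Dazl, at 276 CPM in replicate 12 but 28.6 and 1.68 in the others, did not pass (adjusted p = 0.0229).

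In Dnmt3a_KO members edgeR called 0 of the 22 germline genes tested, with a median log2 difference of 1.27. DESeq2 called 1 of 22, and edgeR called 1 of 22 without WT replicate 2 and 2 of 31 with no filter on low counts. Rpl39l was at 0 to 10.2 CPM, Slc25a31 at 3.53 to 24.4 (log2 3.12 ± 0.65, adjusted p = 0.112) and Cyct at 0.882 to 22.4 (log2 5.02 ± 0.93, adjusted p = 0.0641). These values overlapped the WT range in at least 1 library each. The 3 null groups were compared with the same 7 WT embryos.

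**Figure D4:**
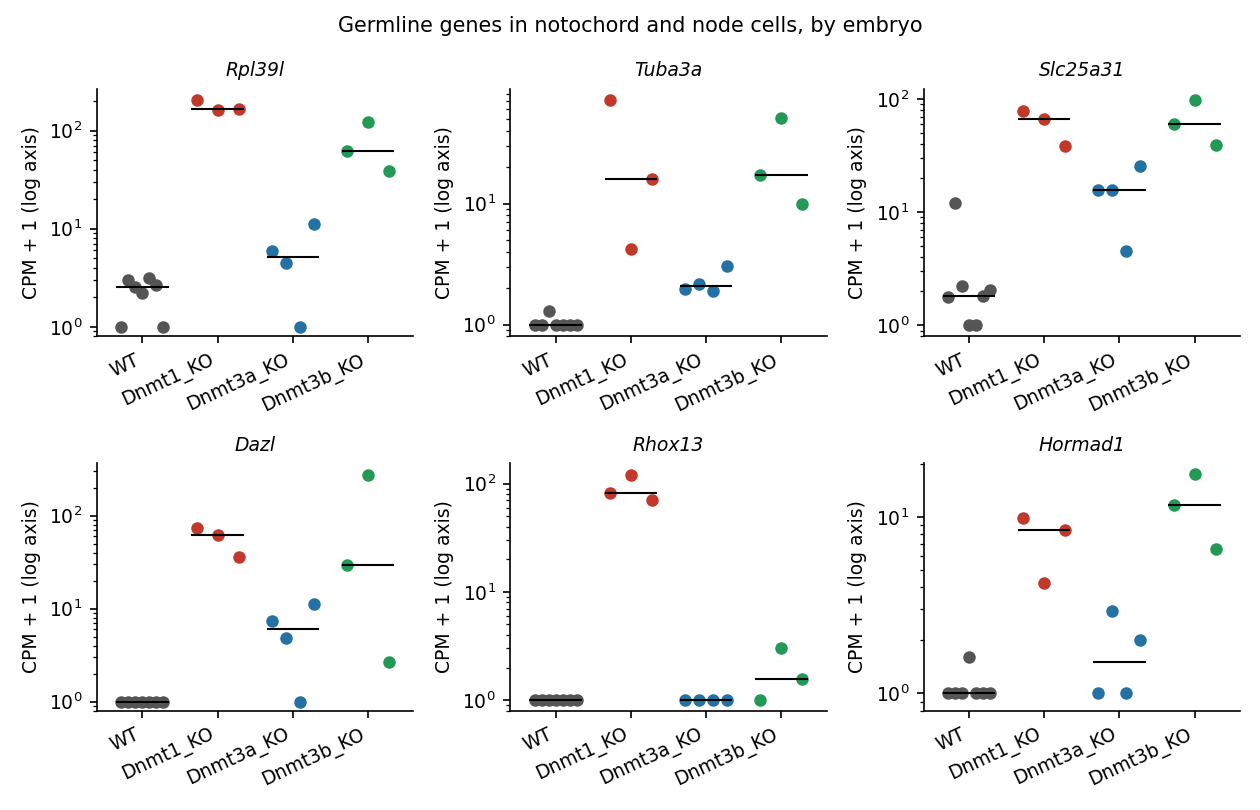
CPM plus 1 (log axis) of 6 germline genes in notochord and node cells, with 1 point per library and bars at the group medians. Rpl39l runs from 159 to 202 CPM in Dnmt1_KO and from 38.0 to 120 in Dnmt3b_KO against at most 2.14 in WT, and Rhox13 leaves 0 mainly in Dnmt1_KO.

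Cilium genes were called in Dnmt1_KO members, but 0 of 22 passed with the sex covariate or the replicate block and 3 of 23 without Dnmt1_KO replicate 2. Of 32 listed genes 22 were tested and 16 were called higher (2.58% of all genes tested were called higher), with a median log2 difference of 3.15 and none lower. For 10 of 22 every Dnmt1_KO embryo lay above every WT embryo, against 4.21% of all genes tested. Tppp3, with few UMIs in WT, passed the filter on low counts only through null libraries. The median and the 10 of 22 thus describe the genes kept by that filter and are no test of the list. Foxj1, the transcription factor that switches on motile cilium genes (chr11:116330704-116335399, minus strand), was at 4.28 to 27.3 CPM in WT members with a median of 5.46, and at 11.3, 338 and 47.1 in Dnmt1_KO replicates 1 to 3. Replicate 2 was far above the rest, and replicate 1 lay below the highest WT embryo, replicate 7, in which 26 Foxj1 UMIs came from 2 of 15 cells. The log2 difference was 3.99 ± 0.66 (adjusted p = 0.00074).

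Other genes of motile cilia had the same order of Dnmt1_KO embryos. Pifo stood at 2.14 to 97.5 CPM in WT (median 20.97) and at 85.4, 695 and 115 in Dnmt1_KO (log2 3.46 ± 0.65, adjusted p = 0.00191). Tppp3, a tubulin-binding protein, was at 0 to 7.34 CPM in WT and at 21.4, 344 and 38.4 (log2 5.14 ± 0.67, adjusted p = 6.26e-05). Dynlrb2, a dynein light chain, was at 0 to 49.3 CPM and at 62.8, 526 and 89.1 (log2 4.27 ± 0.69, adjusted p = 0.000556). For Tppp3 and Dynlrb2 every Dnmt1_KO embryo lay above every WT embryo, with replicate 2 the highest each time. Called as well were the radial spoke genes Rsph1 (log2 3.78) and Rsph4a (5.22), the central apparatus gene Spag6l (4.37), the dynein arm gene Dnah11 (2.97), the axoneme ruler gene Ccdc39 (3.24), Tekt1 (3.69), Cfap126 (3.25), Capsl (2.94), Fam183b (3.06) and 1700012B09Rik (5.60). Ift88, a transport gene of primary and motile cilia alike, was at 14.3 to 29.3 CPM in WT and at 40.2, 172 and 43.3 in Dnmt1_KO (log2 1.98 ± 0.34). The kinesin gene Kif3a had a log2 difference of 1.17 ± 0.26. Summed over the list, members held 212 to 785 CPM in WT and 929, 6020 and 994 in Dnmt1_KO, while the other cells of the same embryos held 82.6 to 120 and 79.2 to 106.

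The promoters of Dynlrb2 and Tekt1 are shown with the motif GTTGCC, a core of the sites bound by RFX factors of ciliated cells, in capitals, and its reverse complement GGCAAC likewise. They were chosen because they hold it, and they are cut and oriented as above. Dynlrb2 lies at chr8:116504765-116505014 on the plus strand and Tekt1 at chr11:72361883-72362132 on the minus strand.
Dynlrb2: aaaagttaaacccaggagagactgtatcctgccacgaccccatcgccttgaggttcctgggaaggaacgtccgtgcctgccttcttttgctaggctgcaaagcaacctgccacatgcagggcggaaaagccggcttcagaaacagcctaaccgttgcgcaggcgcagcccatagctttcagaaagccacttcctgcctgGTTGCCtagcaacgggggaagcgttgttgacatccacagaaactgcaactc
Tekt1: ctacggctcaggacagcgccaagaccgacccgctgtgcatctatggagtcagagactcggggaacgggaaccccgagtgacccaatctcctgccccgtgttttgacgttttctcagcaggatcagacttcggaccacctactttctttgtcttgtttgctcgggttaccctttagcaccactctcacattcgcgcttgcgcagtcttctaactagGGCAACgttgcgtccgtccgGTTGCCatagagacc
The motif stood in 10.5% of all promoters in the table. Of the 16 called cilium genes 12 had a promoter entry, too few for a statement over the group, and Foxj1 had none.

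The cilium calls were set beside those of other settings. Without Dnmt1_KO replicate 2, 3 of 23 cilium genes were called higher (median log2 1.78, 1.23% of all genes tested), with Tppp3 still called (log2 3.19, adjusted p = 0.00417) and Foxj1 not (log2 2.02, adjusted p = 0.056). With the sex covariate 0 of 22 passed (median 2.74, 0.648% of all genes tested called higher), and with the replicate block 0 of 22 passed (median 3.11, 0.188%). Summed over the list, the Noto-positive members held 174 to 1565 CPM in WT and 3344, 6020 and 1351 in Dnmt1_KO replicates 1 to 3, from 2, 10 and 5 cells, and replicate 3 lay below the highest WT embryo, replicate 7. In the same members Foxj1 stood at 4.15 to 62.6 CPM in WT and at 29.0, 338 and 65.7 in Dnmt1_KO, with replicate 1 inside the WT range. A fit on Noto-positive members, chosen after seeing the data, kept Dnmt1_KO replicates 2 and 3 alone. It called Foxj1 (log2 3.72, edgeR adjusted p = 0.000614), Pifo, Tppp3, Dynlrb2 and Ift88. In the main comparisons of Dnmt3a_KO and Dnmt3b_KO 0 of 29 cilium genes were called, with median log2 differences of -0.49 and -0.55. With the replicate block these medians turned to 0.54 and 1.24, resting on Dnmt3a_KO replicates 1 and 2 and on the joined Dnmt3b_KO library alone.

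**Figure D5:**
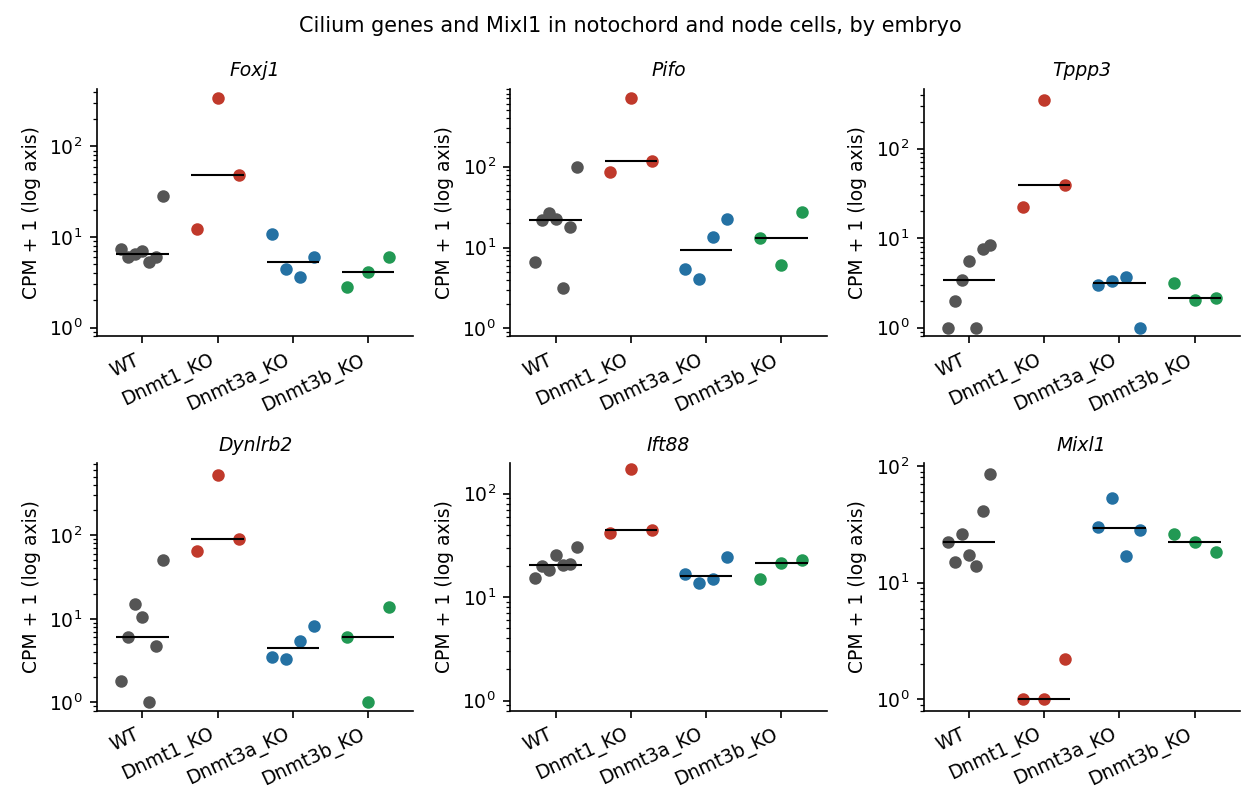
CPM plus 1 (log axis) of 5 cilium genes and of Mixl1 in notochord and node cells, with 1 point per library and bars at the group medians. Dnmt1_KO replicate 2 is the top point for each cilium gene, at 338 CPM for Foxj1 and 695 for Pifo, and Mixl1 is at 0 to 1.24 CPM in Dnmt1_KO.

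Mixl1 moved the other way. This homeobox gene of the primitive streak, found above on the Noto-positive side, was at 12.9 to 83.9 CPM in WT members with a median of 21.5, and at 0, 0 and 1.24 in Dnmt1_KO, where a single UMI was counted in 26 cells. Of 10 axial mesoderm transcription factors tested it alone was called, where 0.617% of all genes tested were called lower (log2 -5.55 ± 1.17, adjusted p = 0.00502). In Noto-positive members its level was 24.9 to 190 CPM in WT, 45.6 to 115 in Dnmt3a_KO and 34.7 to 50.6 in Dnmt3b_KO. Those of Dnmt1_KO replicates 1 to 3 held 0, 0 and 1.83 CPM. Mixl1 was not called with the sex covariate (adjusted p = 0.0773), with the replicate block (0.0166) or without Dnmt1_KO replicate 2 (0.0234). In Noto-positive members it was called (log2 -5.46, edgeR adjusted p = 0.00965), in a fit that kept Dnmt1_KO replicates 2 and 3 alone. Of the other transcription factors Sox9, needed for the notochord sheath, stood at 135 to 303 CPM in WT and 102, 273 and 52.0 in Dnmt1_KO, and Foxa1 at 19.9 to 103 and 38.95, 16.2 and 9.91. Neither passed the test.

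Among left-right signalling genes, which act downstream of nodal flow, Dand5 was called. It encodes the Nodal antagonist at the rim of the node, and it stood at 1.59 to 33.4 CPM in WT and at 104, 162 and 34.7 in Dnmt1_KO (log2 2.90 ± 0.61, adjusted p = 0.00519). All 3 embryos lay above WT, replicate 3 by little, and Dand5 was not called with the sex covariate (adjusted p = 0.0249) or without replicate 2 (adjusted p = 0.0409). Among all genes tested 4.21% lay above every WT embryo in every Dnmt1_KO embryo. Nodal itself stood at 0 to 18.8 CPM in WT and at 11.3, 32.5 and 3.71 (adjusted p = 0.431). The Nodal co-receptor gene Cfc1 was at 14.98 to 84.9 CPM in WT and 32.7, 234 and 87.9 (log2 1.94 ± 0.47, adjusted p = 0.0137). The receptor gene Acvr2b had a lower level in every Dnmt1_KO embryo, at 52.0 to 67.8 against 84.9 to 140 CPM, but its log2 difference of -0.89 stayed under the size needed for a call. A level below every WT embryo in every Dnmt1_KO embryo was seen for 7.93% of all genes tested. In all, 1 of 6 left-right genes tested was called in Dnmt1_KO, where 2.58% of all genes tested were called higher, and 0 of 7 in each of the other null groups. With the replicate block 0 of 6 were called in Dnmt1_KO and 2 of 7 in Dnmt3a_KO, where that fit called 0.85% of all genes tested.

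Secreted antagonists gave 1 call out of 9 tested, where 2.58% of all genes tested were called higher. Cer1, an antagonist of Nodal, BMP and Wnt made by anterior endoderm, was at 0 to 5.09 CPM in WT members and at 38.95, 55.2 and 40.9 in Dnmt1_KO (log2 4.74 ± 0.75, adjusted p = 0.000434), and was not called with the sex covariate (adjusted p = 0.0991). Its level in the other cells was 0.975 CPM in WT and 2.21 in Dnmt1_KO. Dkk1, a Wnt antagonist, was at 44.6 to 150 CPM in WT and at 386, 9.75 and 199 in Dnmt1_KO, so its embryos lay on both sides of WT. Fstl1 lay below WT in every Dnmt1_KO embryo, at 45.5 to 54.0 against 72.3 to 144 CPM (log2 -0.98 ± 0.21, adjusted p = 0.00606), just short of the size needed. Every Dnmt1_KO embryo lay below every WT embryo for 7.93% of all genes tested. Fst and Sfrp1 did not pass.

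The hedgehog pathway, through which notochord Shh acts and which reports its own activity by Ptch1, showed no call in 10 genes tested in Dnmt1_KO or in 14 in each of the other groups. The shares of all genes called were 3.2% in Dnmt1_KO, 0% in Dnmt3a_KO and 0.152% in Dnmt3b_KO. Ptch1 stood at 173 to 309 CPM in WT members and at 132, 162 and 150 in Dnmt1_KO, every embryo below WT, with a log2 difference of -0.66 ± 0.18 (adjusted p = 0.0252). Every Dnmt1_KO embryo lay below every WT embryo for 7.93% of all genes tested, and whether pathway activity changed was not tested. Smo, the signal transducer, was at 57.0 to 103 and 57.8 to 84.5 CPM (adjusted p = 0.996). Gas1, a co-receptor, was at 25.2 to 60.0 and 11.3 to 22.7 CPM (adjusted p = 0.106). The median over the list was -0.21, 0.12 and -0.10 on the log2 scale in Dnmt1_KO, Dnmt3a_KO and Dnmt3b_KO.

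The matrix of the notochord sheath gave 0 calls among 18 genes tested in each of the 3 comparisons. Of all genes tested 3.2% were called in Dnmt1_KO, 0% in Dnmt3a_KO and 0.152% in Dnmt3b_KO, so a count of 0 is near those shares. In Dnmt1_KO 7 of the 18 had an unadjusted edgeR p under 0.05 (median log2 difference -0.49), as had 2226 of all 9562 genes tested. Fn1 (fibronectin) stood at 194 to 323 CPM in WT and at 226, 26.0 and 177 in Dnmt1_KO, and Col4a1 at 140 to 422 and 239, 35.7 and 176. Dnmt1_KO replicate 2 was the lowest of all libraries for both, and for Vcan (29.2 CPM) and Sparc (81.2 CPM). In Dnmt3a_KO Col4a1 was at 112 to 177 CPM (log2 -0.86 ± 0.21, adjusted p = 0.203). Of 9 genes of simple epithelium 1 was called in Dnmt1_KO (2.58% of all genes tested were called higher), the adhesion gene Cdh1 (E-cadherin), at 37.9 to 79.3 CPM in WT and 143, 127 and 81.7 (log2 1.30 ± 0.23, adjusted p = 0.00121), not called with the sex covariate (adjusted p = 0.138). The keratin genes Krt8, Krt18 and Krt19, which line notochord and node alike, did not pass, at medians of 940, 805 and 450 CPM in WT.

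Imprinted genes, expressed from a single parental copy under the control of inherited methylation, gave 5 calls among 33 tested in Dnmt1_KO. Of these 2 were higher and 3 lower, where 2.58% and 0.617% of all genes tested were called, and 28 were not called. With the sex covariate 1 was called higher and 2 lower, and with the replicate block 0 and 2. Grb10, a growth inhibitor (chr11:11930508-12038683, minus strand), fell from 262 to 458 CPM in WT members to 3.77, 0 and 1.24 (log2 -7.34 ± 0.39, adjusted p = 5.66e-10). Cdkn1c, the cell cycle inhibitor p57 (chr7:143458339-143461050, minus strand), fell from 311 to 976 CPM to 16.3, 19.5 and 11.1 (log2 -5.26 ± 0.44, adjusted p = 3.05e-07). H13 fell from 47.1 to 75.7 CPM to 22.6, 12.99 and 22.3 (log2 -1.47 ± 0.24). Peg3 rose from 279 to 642 CPM to 1099, 750 and 1580 (log2 1.46 ± 0.23, adjusted p = 0.000368), and Mcts2, which lies inside H13, rose from 20.97 to 45.0 CPM to 75.4, 120 and 50.8 (log2 1.38 ± 0.22). None of these 5 genes overlapped between the groups, and of all genes tested 4.21% lay above and 7.93% below WT in every Dnmt1_KO embryo. Grb10 and Cdkn1c were called under every alternative setting tried, 30 of 30 each, and Grb10 stood at 180 and 2.02 CPM in the other cells of WT and Dnmt1_KO. In Dnmt3a_KO and Dnmt3b_KO 0 of 34 were called, or 2 of 34 in each with the replicate block (0.85% and 0.778% of all genes tested), and Grb10 stood at 349 to 510 and 253 to 427 CPM.

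Hox genes give cells their position along the body axis. Of 39 listed 20 were tested in Dnmt1_KO and 1 was called lower (0.617% of all genes tested were called lower). With the sex covariate or without Dnmt1_KO replicate 1, 0 were called. DESeq2 called 4 of 20, the fit with no filter on low counts 5 of 35 and that without Dnmt3a_KO replicate 14 3 of 19. Over all genes tested these fits called 86 of 9562, 116 of 19857 and 61 of 9368 lower, in the same order. The median log2 difference was -2.09 and 0 of 20 were above 0. Summed over the list, members held 306 to 602 CPM in WT and 133 to 218 in Dnmt1_KO, and the other cells of the same embryos held 393 to 567 and 99.4 to 207. Hoxc8 was at 24.1 to 75.8 CPM in WT members and at 0 in all 3 Dnmt1_KO embryos, at least 35.8-fold lower. It was called (edgeR adjusted p = 0.00248), but not with the sex covariate (0.0258) or in Noto-positive members (0.408). Hoxa9 and Hoxc9 were also at 0 in all 3 Dnmt1_KO embryos, against 3.14 to 17.5 and 2.10 to 11.96 CPM in WT. They did not pass (adjusted p = 0.0253 and 0.0534). Hoxb9 was at 18.9 to 70.7 CPM in WT and at 13.8, 19.5 and 0. For 8 of 20 every Dnmt1_KO embryo lay below every WT embryo, against 7.93% of all genes tested. In Dnmt3a_KO the 23 tested Hox genes all had positive log2 differences (median 0.59) and 0 were called, with Hoxa9 at 32.9, 76.6, 22.9 and 24.4 CPM in replicates 13, 14, 1 and 2, all above WT (log2 1.85 ± 0.37, adjusted p = 0.0932). Every Dnmt3a_KO embryo lay above every WT embryo for 0.519% of all genes tested. Summed over the list, replicates 13, 14, 1 and 2 held 638, 1380, 492 and 434 CPM. Replicate 14 thus stood far above the rest, and replicates 1 and 2 lay inside the WT range. In Dnmt3b_KO 3 of 23 were positive (median -0.31, or 0.0115 with the replicate block). The 4 posterior Hox genes named here were picked by the study on these embryos, so their direction is no independent evidence.

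Markers of other tissues were read next. Fgf8, a growth factor of the tail bud, was at 47.8 to 171 CPM in WT members and at 21.4, 39.0 and 16.1 in Dnmt1_KO, every embryo below WT (log2 -1.96 ± 0.46, adjusted p = 0.011). Such a level, below WT in every Dnmt1_KO embryo, was seen for 7.93% of all genes tested. The 5 neuromesodermal markers tested gave 0 calls and a median of -1.42. Somitic markers gave 0 calls of 5 (median -2.60), neural tube markers 0 of 5 (median -1.42), yolk sac endoderm markers 0 of 6 (median -3.21) and erythroid markers 0 of 5 (median -6.21). Summed erythroid markers in members were 23.6 to 2678 CPM in WT, 7.54 to 12.99 in Dnmt1_KO, 180 to 2732 in Dnmt3a_KO and 470 to 5502 in Dnmt3b_KO. The other cells held 3008 to 36274 CPM in WT and 1072 to 1540 in Dnmt1_KO, so blood transcripts were lower in Dnmt1_KO both in members and in the rest of the embryo. Their part in the results was not tested beyond leaving out members with 4 or more markers of another type, which dropped Dnmt1_KO replicate 1 and left 174 calls among 6357 genes tested in Dnmt1_KO with 12 of 16 cilium genes tested and 3 of 7 germline genes tested called, and 13 calls among 6357 in Dnmt3b_KO with 2 of 7 germline genes called.

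The gut endoderm list gave 1 call out of 6 in Dnmt1_KO, where 2.58% of all genes tested were called higher. Trh, a gene of embryonic gut, stood at 5.58 to 82.9 CPM in WT members and at 722, 29.2 and 297 in Dnmt1_KO (log2 2.98 ± 0.67, adjusted p = 0.0073), and was not called with the sex covariate (adjusted p = 0.0445). Replicate 2, the embryo whose members all had Noto, was inside the WT range. Spink1 followed the same order at 2405, 97.5 and 1389 CPM against 209 to 1380 in WT and did not pass. In Dnmt3a_KO all 6 gut genes had negative log2 differences (median -1.04), with Sox17 at 6.38 to 31.6 CPM against 14.3 to 108 in WT (log2 -2.16 ± 0.44, adjusted p = 0.0957), and 0 of 6 were called. In Dnmt3b_KO 0 of 6 were called (median -0.02). Trophoblast and endothelial lists gave 0 calls of 2 and of 1 in Dnmt1_KO, and 0 of 3 and 0 of 4 in each of the other groups.

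Further genes that fell in Dnmt1_KO were named by size. Nepn, a small proteoglycan of the midline and foregut, was at 63.5 to 459 CPM in WT members and at 0, 3.25 and 1.24 (log2 -7.13 ± 1.51, adjusted p = 0.00521). It was not called with the sex covariate (edgeR adjusted p = 0.0117) or the replicate block (0.0166). Nor was it called without Dnmt1_KO replicate 2 (0.0228) or in Noto-positive members (0.516). Foxd1, a forkhead gene, was at 26.0 to 111 and 5.03, 3.25 and 2.48 (log2 -4.02 ± 0.59, adjusted p = 0.000186). Mfap2, of elastic microfibrils, was at 49.4 to 106 and 7.54, 0 and 7.43 (log2 -3.29 ± 0.43, adjusted p = 6.58e-05), and Apobec3, a cytidine deaminase, at 5.76 to 17.0 and 1.26, 0 and 0 (log2 -3.97 ± 0.81, adjusted p = 0.00404). None of the 4 overlapped, and 7.93% of all genes tested lay below every WT embryo in every Dnmt1_KO embryo. Foxd1 and Mfap2 stood lower in the other cells too, at 23.5 and 0.226 CPM and at 28.9 and 3.78 CPM in WT and Dnmt1_KO. From lists that the study chose on these embryos, Pou5f1, a pluripotency factor, was called higher (0 to 10.5 CPM in WT and 23.9 to 61.7 in Dnmt1_KO, log2 2.64 ± 0.58) as the 1 gene of 5 that passed the filter on low counts, and so was Xlr3a (0.797 to 11.2 and 45.8 to 60.3 CPM, log2 2.90 ± 0.38), 1 of 5 tested in the extraembryonic list of 6, where 2.58% of all genes tested were called higher. Pou5f1 was not called with the sex covariate (edgeR adjusted p = 0.0114), the replicate block (0.0466) or without Dnmt1_KO replicate 2 (0.0492). It was called in Noto-positive members (0.0011).

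Of 21 cell cycle genes 1 was called in Dnmt1_KO, Cdkn1c as above, where 0.617% of all genes tested were called lower, and 0 in the other groups, with Top2a at 238 to 493 CPM in WT and 494, 270 and 359 in Dnmt1_KO. Of 20 housekeeping genes 0 were called in any comparison, with medians of 0.02, 0.18 and 0.19 on the log2 scale. In Dnmt3b_KO Ahcy, an enzyme of the methyl cycle, lay below every WT embryo at 6.80, 5.13 and 5.03 against 15.9 to 34.3 CPM and narrowly missed the threshold (log2 -1.72 ± 0.30, adjusted p = 0.0132). For 1.59% of all genes tested every Dnmt3b_KO library lay below every WT embryo. Ahcy (chr2:155059310-155074497) is on the same chromosome as the targeted Dnmt3b (chr2:153649450-153687730), and an effect of that position was not tested.

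An interaction test was run with the embryo as a block. It set the difference of a null group from WT in these cells against that in the other cells of the same embryos. The other cells are a mixture whose make-up differed by group. At least 4 of 6 trophoblast markers were detected in 15.1% of them in Dnmt1_KO and 0.316% in WT, and erythroid markers in 6.15% and 40.7%. A change in make-up and a change within cells cannot be told apart in this test. In Dnmt1_KO 3 of 9562 genes were called (0.0314%). Elmod1, a GTPase regulator, was at 2.17 CPM in WT members and stood at 12.6, 81.2 and 9.91 in Dnmt1_KO, while in other cells it went from 0.624 to 0.0968 CPM, an interaction of 6.24 on the log2 scale (adjusted p = 0.00809). Ddah1, which degrades methylarginines, went from 79.0 to 35.1 CPM in members and from 49.0 to 67.0 in other cells (interaction -1.502, adjusted p = 0.00325). Klhl13, a ubiquitin ligase adaptor, went from 20.96 to 23.0 CPM in members and from 19.5 to 112 in other cells (interaction -2.06, adjusted p = 0.00809). No germline, imprinted or cilium gene was among the 3. The count moved between 1 and 150 when single embryos were left out, with 150 without Dnmt1_KO replicate 3. Elmod1 lost its call in several of these fits, among them those without Dnmt1_KO replicate 1 or without WT replicate 1, where 0 positive interactions were called. In Dnmt3a_KO and Dnmt3b_KO edgeR called 0 genes (0% each), with 660 and 594 at an unadjusted p under 0.05.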

How the data were processed

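Embryos at E8.5 were dissociated singly and profiled with 10x Chromium 3' chemistry. The authors deposited 1 matrix of UMI counts per library, made with Cell Ranger (3.1.0 in 17 libraries and 5.0.0 in 1, per the file headers), with 31053 mouse genes, and 4 of the 18 libraries were counted against a combined human and mouse reference. Human rows were left out here, and 0 columns lacked a sample. Barcodes with 3000 or more mouse UMIs were kept, putative doublets, scored by the Scrublet routine of scanpy 1.11.5, were retained, and no batch integration was done. The members and all gene lists were chosen with earlier results of these data known.

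UMIs were summed over the members of each library, libraries with at least 10 members (5 for Dnmt1_KO, where a single library reached 10) were kept, and all groups were fitted together with the edgeR 4.0.16 quasi-likelihood test after filterByExpr and TMM scaling in R 4.3.3. Genes were called at an adjusted p of 0.01 and a log2 difference of 1. Shares were compared by exact permutation tests on log2 percent after thinning to 3000 UMIs, averaged over 100 draws, with 0.5 added to the member count. DESeq2 1.42.0 was an alternative. The genes named were the rule genes, the targeted genes, the 8 called genes per direction with the largest log2 difference among those whose null libraries all lay outside the WT range (all, where fewer were called, and none Y-linked, Xist or Tsix), up to 4 members of each list by WT level and every member called, the 15 leading genes detected in at least 20% of WT members, and the genes called in the interaction. A leading gene is not reported here. Further list members and the genes of the Noto comparison were named after their values were seen. On simulated data 83.1% of genes changed by a log2 of 2 were recovered for Dnmt1_KO (9320 genes), 92.3% for Dnmt3a_KO (10518) and 89.8% for Dnmt3b_KO (10535). The simulated counts came from 1 mean profile with a spread set by expression level, without single dominant cells. These rates may therefore not hold in the real embryos, least of all in Dnmt1_KO. Counting intervals cover counting error only.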

Additional observations from a re-analysis of the deposited data

Results flagged for a closer look

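Of 139 groups examined, 28 had a sample set apart from the others of its group by Dixon's test, where chance gives about 1 in 20. WT replicate 7 stood above the other WT embryos in 10 genes, with Noto at 117 CPM, Foxj1 at 27.3, Pifo at 97.5, Fam183b at 128, Dynlrb2 at 49.3, Cfap126 at 94.3, Tekt1 at 41.9, Rsph1 at 33.5, Spag6l at 9.43 and Mixl1 at 83.9. Noto is a gene of the rule, so its flag is a description of the chosen cells and not a test result. Without this embryo 16 of 22 cilium genes were called in Dnmt1_KO, and with it 16 of 22.

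WT replicate 2, the male WT embryo, stood above the others for Nepn at 459 CPM, AU022751 and Syce1 at 0.998 each, Slc25a31 at 10.98, Fkbp6 at 3.99 and Gm4779 at 4.99. Single WT embryos stood apart for Cer1 (5.09 CPM) and Hormad1 (0.599) in replicate 4, Tuba3a (0.303) and Mtus2 (6.37) in replicate 3, Mfap2 (106) in replicate 1, Cyct (4.28) in replicate 5 and Mov10l1 (0.8288) in replicate 6. Flagged values under 1 CPM rest on very few UMIs. Among Dnmt3a_KO embryos, replicate 2 stood apart for Tekt1 (16.3 CPM), Cer1 (11.2) and Phlda3 (30.5), and replicate 1 for Rsph4a (2.65) and Mov10l1 (0).

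The Dnmt1_KO effect differed between notochord and node cells and the other cells of the embryo, by an interaction test, for Elmod1 (6.24 on the log2 scale), Ddah1 (-1.502) and Klhl13 (-2.06). In the libraries counted against the combined reference, human genes held 0.00871% of counts in Dnmt3a_KO replicate 13, 0.00913% in Dnmt3a_KO replicate 1 and 0.00838% in Dnmt3b_KO replicate 11, against 0.00814% in WT replicate 1.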

How the results depend on the processing

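With 8 to 10 Dnmt1_KO members per embryo, and 1 male WT embryo, the Dnmt1_KO counts moved widely. Against 306 calls, 633 were made with no filter on low counts, 662 with 3 of 6 markers, 174 without members holding markers of another type, 178 in Noto-positive members (chosen after seeing the data), 125 after thinning to the smallest library and 81 with the sex covariate, of which 66 were among the 306. Leaving out embryos gave 153 to 385, with 153 without Dnmt1_KO replicate 2. The Dnmt3a_KO count of 0 became 7 with DESeq2, 8 with no filter, 1 in Noto-positive members and 0 to 6 with an embryo left out (6 without WT replicate 2, 2 without Dnmt3b_KO replicate 12). The Dnmt3b_KO count of 17 became 41 with no filter, 30 with the sex covariate, 54 with 3 of 6 markers, 11 with 5 of 6, 6 in Noto-positive members, 4 after thinning and 10 to 26 with an embryo left out (26 without WT replicate 2, 11 without Dnmt3b_KO replicate 11, 10 without replicate 12). The cause was not tested.

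The replicate numbers share only a number (correlations of deviations from -0.081 to 0.225 over 8 pairs, 4 over 0.1). With the replicate block 31 genes were called in Dnmt1_KO, 27 of them among the 306, 95 in Dnmt3a_KO and 87 in Dnmt3b_KO, 5 of them among the 17.

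The share difference of Dnmt3b_KO turned to 0.0113 with the joined replicates counted separately and ranged from -0.293 to 0.142 with an embryo left out (0.142 without Dnmt3b_KO replicate 11, 0.00342 without WT replicate 4). The range was -1.77 to -0.932 for Dnmt1_KO and -0.450 to -0.127 for Dnmt3a_KO. The interaction count in Dnmt1_KO went from 3 to 9 with RLE scaling, 5 with thinned pairs and 1 to 150 with an embryo left out (150 without Dnmt1_KO replicate 3, 25 without WT replicate 7, 12 without Dnmt3a_KO replicate 2, 11 without WT replicate 2, 8 without Dnmt1_KO replicate 2). Trh in Dnmt1_KO turned to -0.52 in Noto-positive members. Of 1876 values of named genes in Dnmt1_KO 202 lost the call, and of 622 in Dnmt3b_KO 80 did.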

Other observations

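Ccng1, Phlda3 and Pmaip1 were named after their values had been seen and stand for no list. Ccng1, a cyclin gene, stood at 8.39 to 25.3 CPM in WT members and at 77.9, 87.7 and 95.3 in Dnmt1_KO replicates 1 to 3 (log2 2.53 ± 0.28, edgeR adjusted p = 9.18e-06), and it was called with the sex covariate and with the replicate block. Phlda3 stood at 16.0 to 30.7 CPM in WT and at 102, 94.2 and 137 in Dnmt1_KO (log2 2.33 ± 0.25, adjusted p = 6.33e-06). Pmaip1, a proapoptotic gene, stood at 1.05 to 7.19 CPM in WT and at 15.1, 58.5 and 19.8 in Dnmt1_KO (log2 2.49 ± 0.45, adjusted p = 0.00152). Every Dnmt1_KO embryo lay above every WT embryo for these 3 genes, as for 4.21% of all genes tested. In Dnmt3a_KO and Dnmt3b_KO none of the 3 was called, with Ccng1 at 9.71 to 20.6 and 17.9 to 38.0 CPM.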
